A study of Danio rerio with 63 samples.

Results

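Uninjected zebrafish (Danio rerio) blastoderm explants were followed across gastrulation, from the shield stage to 75% epiboly. The comparison rests on 6 of the 63 RNA-seq libraries of the series, which are the 3 lettered replicates (A, B and C) of uninjected explants at shield, at 6 hours post fertilization (hpf), and the 3 at 75% epiboly, at 8 hpf. An explant is a piece of blastoderm isolated from the embryo at about 3 hpf, per the labels' protocols, and kept in explant medium until the named stage. Uninjected explants received no mRNA and serve as the controls of explants whose embryos were given, at the 1-cell stage, mRNA for the Nodal ligand ndr2 (10 pg) or for the Nodal receptor CA-acvr1b* (0.5 pg), in a form that signals without ligand. Every condition was sampled at 7 stages between sphere and 2-somite. Polyadenylated RNA was sequenced. The labels do not say how many explants were pooled in a library or whether replicates came from separate clutches. P-values therefore measure the spread between replicate libraries, estimated over all 63, and this spread may be technical.

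During gastrulation the ectoderm is divided by a gradient of bone morphogenetic protein (BMP) signalling. High BMP favours non-neural ectoderm, which gives epidermis and its ionocytes, intermediate levels favour the neural plate border, and low levels allow neural fate, while Nodal signalling induces mesoderm and endoderm. Without added Nodal, blastoderm explants are known to make little mesendoderm. Over the same hours the embryo goes on clearing transcripts loaded into the egg by the mother, and the cell cycle lengthens. The outermost cells, the enveloping layer, form a tight epithelium that becomes the periderm.

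Values are CPM, that is, deposited read counts relative to a common library total after scaling with TMM factors, which level the composition of libraries. The 6 libraries held between 13265259 and 17206877 counts and between 17935 and 19087 genes with at least 1 count. A count of 0 allows up to 3 counts, which is 0.192 to 0.247 CPM here, and this limit covers counting error only. A gene was called when the adjusted p of edgeR's quasi-likelihood F-test, corrected over all 19069 genes tested, was under 0.05. Differences are log2 fold changes of 75% epiboly over shield, with n = 3 against 3.

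1 library stood apart. The counts of 75% replicates B and C differed by a chi-square of 6.06 per degree of freedom, whereas replicate A differed by 48.7 from B and by 35.6 from C. The 3 shield pairs lay between 14.0 and 18.4. A stage scale was built after the data had been seen, from the 817 genes that rose and the 970 that fell at least 2-fold in both sets of injected explants, with 0 at the mean of injected shield libraries and 1 at the mean of injected 75% libraries. On it the uninjected shield libraries A, B and C stood at 0.350, 0.1002 and 0.212, and the 75% libraries at 1.19, 0.791 and 0.856. Replicate A at 75% was thus beyond the other 2 in the direction of later stages, and near uninjected replicate A at 90% epiboly (1.25) and the 2-somite libraries (1.202 to 1.26). Uninjected replicate A also had the highest position at 50% epiboly, shield and 90% epiboly. The deposited data do not tell whether its stage or its label differs from that of its partners, so each value with this library holds for the library labelled 75% replicate A. Calls are therefore given with this library and without it. A call is said to be lost without a library where the adjusted p of the fit that leaves that library out is 0.05 or more, with the highest adjusted p over the 6 such fits, and every other named call held without any one of the 6 libraries. The spread between replicates was estimated from all 63 libraries, and calls that held without each single library but were lost when only the 6 libraries, or only the 21 uninjected ones, entered the fit are named beside their genes.

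**Figure D1:**
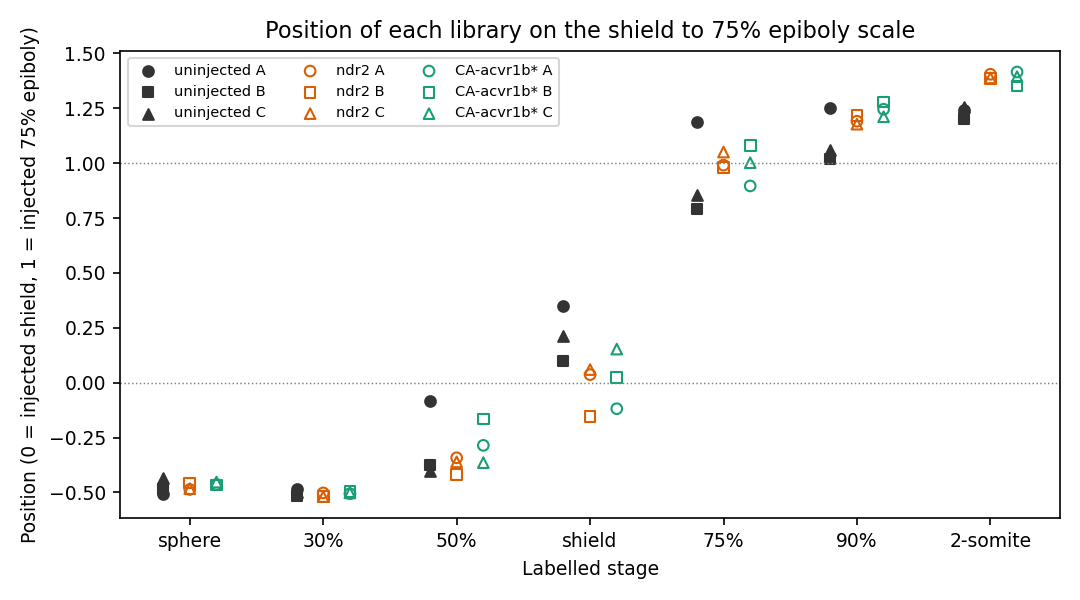
Position of all 63 libraries on the stage scale, where 0 is the mean of injected shield and 1 the mean of injected 75% epiboly libraries, against the labelled stage. Marker shape gives the replicate, fill and colour the condition. Uninjected replicate A at 75% (1.19) lies above replicates B (0.791) and C (0.856).

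Between shield and 75% epiboly 3018 genes were called, or 15.8% of those tested. Of these, 1349 were higher at 75% (7.07% of genes tested) and 1669 were lower (8.75%). A fold of at least 2 was reached by 765 of the higher and 846 of the lower genes, together 8.45%. The 3 libraries of a stage did not overlap those of the other in 6424 genes, or 33.7% of the genes tested. Without 75% replicate A, 1289 genes were called, 486 higher and 803 lower, and 735 of them passed a fold of 2. Of those 1289 genes 1271 were among the 3018, all with the same sign. Leaving out shield replicate B gave 1754 calls, whereas 6 libraries gave 3018. Replicate A was the highest of the 3 libraries at 75% for 85.3% of the genes called higher and the lowest for 81.8% of the genes called lower, compared with 41.6% and 41.8% over all genes tested. The median gene called higher stood 1.27, 0.71 and 0.77 above shield in replicates A, B and C on the log2 (CPM + 1) scale, and was largest in A. The genes were called with these same libraries, so such medians and shares describe the called genes and do not test the rise in each library.

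**Figure D2:**
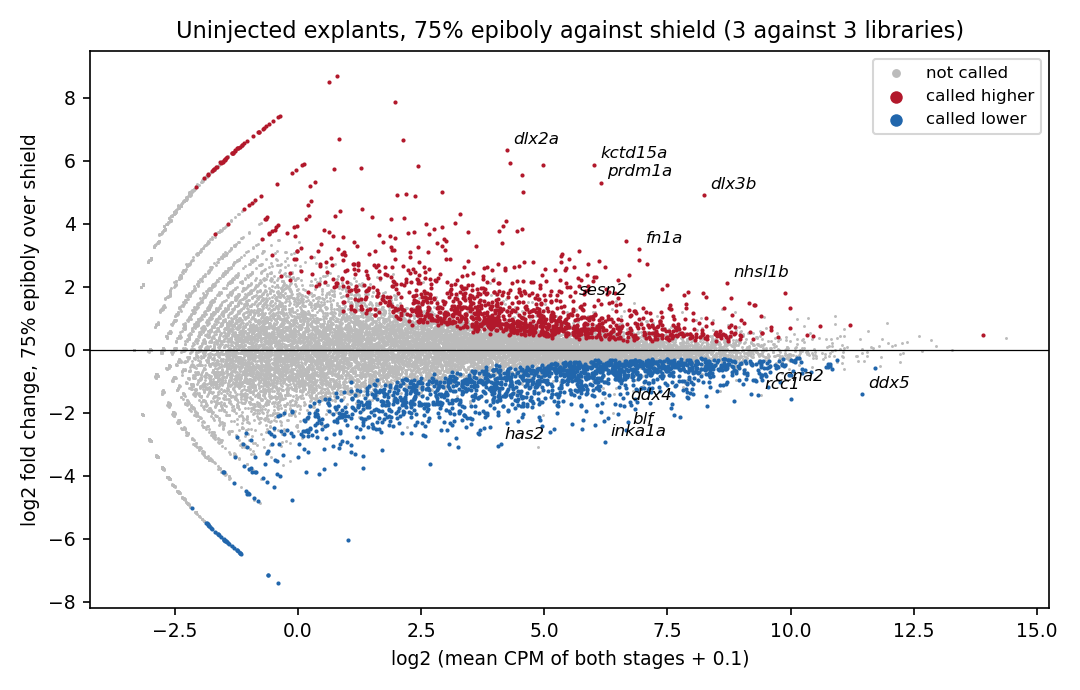
Log2 fold change of 75% epiboly over shield for 19069 genes against log2 of the mean CPM of both stages plus 0.1. Red and blue mark the 1349 genes called higher and the 1669 called lower. Curved rows at the left edge are genes with no counts in one of the stages.

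The named genes passed the call with and without 75% replicate A, had non-overlapping libraries and reached a mean of 10 CPM, and the 12 largest rises and falls among 368 and 578 such genes are described first. In bulk RNA a change in the number of cells of a type and a change in RNA per cell cannot be told apart. Genes that overlap others on the opposite strand are uncertain, because the use of strand in counting is not given in the sources used here.

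Transcription factors were among the steepest rises, beside genes of other roles. dlx2a (ENSDARG00000079964), a distal-less homeobox gene, was at 0.215, 0.549 and 0.601 CPM in shield replicates A, B and C and at 63.9, 25.1 and 22.9 CPM at 75% epiboly. Its log2 fold change was 6.34 (SE 1.06, adjusted p = 5.92e-05), and 5.71 without 75% replicate A. dlx3b, a homeobox gene of the ectoderm that borders the neural plate, went from 30, 13.1 and 14.6 CPM to 1042, 326 and 381 CPM. That was the most abundant of the 12, and it changed by 4.92 (SE 0.57, adjusted p = 5.68e-08), or by 4.2 without replicate A. prdm1a, a zinc finger repressor needed for neural crest and sensory neurons at the plate border, stood at 4.94, 1.65 and 3.83 CPM at shield and at 323, 39.9 and 53.3 CPM at 75%. In this gene replicate A exceeded B and C several-fold, and the log2 fold change of 5.31 (SE 0.59, adjusted p = 2.45e-08) dropped to 3.73 without it. prdm1a was not called in the fit of the 6 libraries alone (adjusted p = 0.0728).

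tbx3a, a T-box factor, measured 1.002, 0.314 and 1.58 CPM at shield and 71.1, 32.8 and 32.2 CPM at 75% epiboly, a change of 5.54 (SE 0.96). Leaving out 75% replicate A gave 5.06. foxi3a, which specifies the ionocyte lineage of the skin, rose from 2.29, 0.863 and 1.13 CPM to 94.9, 20.5 and 23.1 CPM. The change was 5.0 (SE 0.98) with replicate A and 3.92 without it. msx1a, a homeobox gene that responds to BMP, moved from 3.87, 0.941 and 1.35 CPM to 47.4, 25.2 and 33.5 CPM. Its change of 4.09 (SE 0.59) was 3.82 without 75% replicate A and 4.93 without shield replicate A, the highest of the shield libraries.

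The remaining rises of the 12 had other roles. kctd15a, which restrains neural crest formation, went from 3.65, 1.02 and 1.65 CPM to 322, 22.8 and 33.7 CPM, with 75% replicate A far above its partners. Its log2 fold change was 5.88, and 3.72 without that library or 6.55 without shield replicate A. pcdh19, a protocadherin, had 2.005, 0.549 and 0.526 CPM at shield and 152, 9.598 and 22.5 CPM at 75%, a change of 5.87 that was 3.93 without 75% replicate A and 6.81 without shield replicate A. The cyclin gene ccndx rose by 5.92 (without replicate A 4.61) and dixdc1a, a DIX domain gene linked to Wnt signalling, by 5.85 (4.03 without 75% replicate A, 6.95 without shield replicate A). dixdc1a went from 0.358, 0.157 and 0 CPM to 25.5, 1.02 and 5.03 CPM. Its shield mean of 0.172 CPM was under the mean 3-count limit of 0.225 CPM, so the size of its fold is uncertain. ldlrad4a, an inhibitor of TGF-beta signalling, rose by 4.31 from 1.15, 0.314 and 1.28 CPM to 26.9, 14.6 and 13.5 CPM. btr01, of the bloodthirsty-related TRIM family, rose by 4.0, a change of 3.17 without 75% replicate A and 4.85 without shield replicate A. In the fit of the 6 libraries alone ccndx, dixdc1a, pcdh19 and kctd15a were not called (adjusted p = 0.054, 0.0919, 0.1003 and 0.1008).

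**Figure D3:**
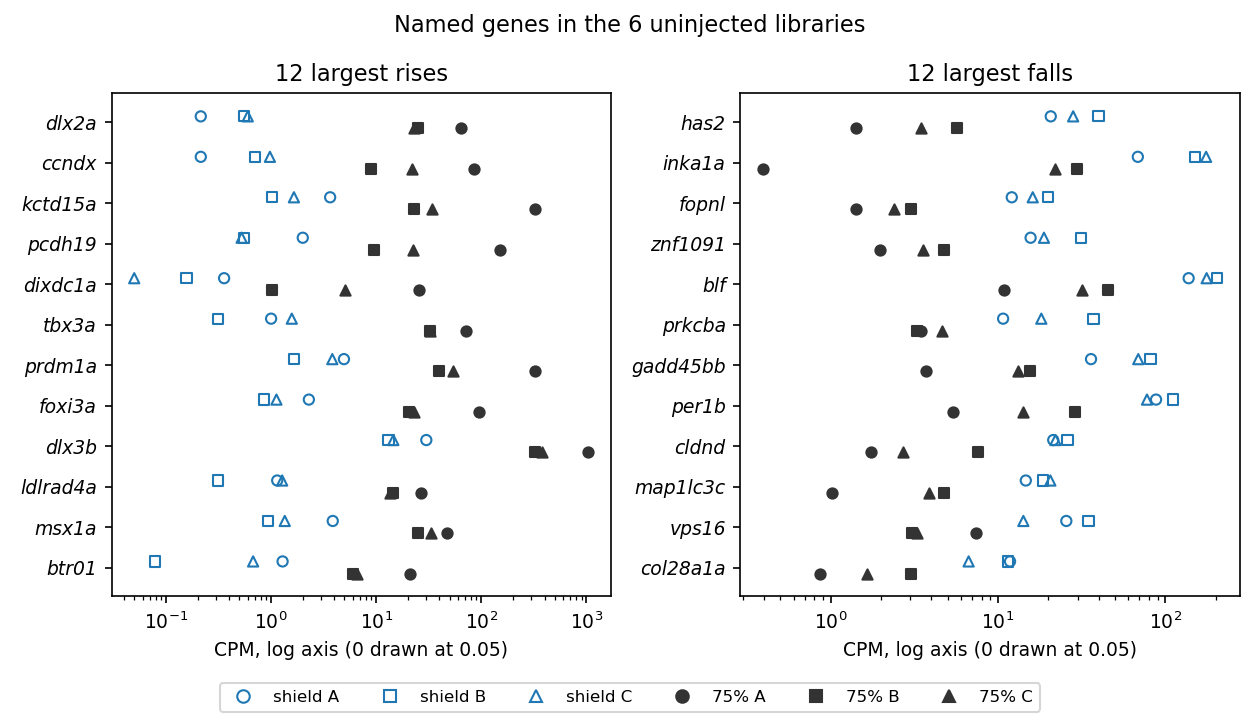
CPM on a log axis of the 12 largest rises (left) and the 12 largest falls (right) in each uninjected library. Open blue markers are shield, filled black markers 75% epiboly, and shapes the replicates. Stages do not overlap in these 24 genes because the naming rule required it, and 75% replicate A is the highest in all 12 rises.

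All 12 of the steepest falls had their highest mean in uninjected explants before shield. has2 (ENSDARG00000036987), the hyaluronan synthase of the early embryo, fell from 20.7, 39.9 and 28.2 CPM at shield to 1.42, 5.69 and 3.46 CPM at 75% epiboly. This was a change of -3.04 (SE 0.66, adjusted p = 0.000846), and -2.68 without 75% replicate A. Over the time course of uninjected explants its mean went from 199 CPM at 30% epiboly to 29.6 at shield, 3.53 at 75% and 1.02 at 90%. inka1a, an inhibitor of the kinase Pak4, went from 68.6, 151 and 176 CPM to 0.394, 29.6 and 21.9 CPM, and was almost absent from replicate A. It changed by -2.92 (SE 0.59), by -2.35 without 75% replicate A and by -3.57 without 75% replicate B. The zinc finger gene blf stood at 138, 204 and 177 CPM and then at 10.9, 45.2 and 31.8 CPM, a change of -2.56 (SE 0.48) from a mean of 864 CPM at 30% epiboly that had already dropped to 173 CPM at shield. In the fit of the 6 libraries alone inka1a and blf were not called (adjusted p = 0.245 and 0.0579).

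gadd45bb, of the growth arrest and DNA damage family, fell by 2.51 on the log2 scale, from 36.02, 81.6 and 69.01 CPM to 3.71, 15.6 and 13.3 CPM. per1b, a period gene of the circadian clock, was at 88.1, 111 and 77.8 CPM and then at 5.36, 28.9 and 14.1 CPM. Its change of -2.51 was -2.10 without 75% replicate A and -3.25 without 75% replicate B, the highest of its stage. Both genes had their highest means at 30% or 50% epiboly, with 242 CPM of per1b at 30% and 175 CPM of gadd45bb at 50%, and neither was called in the fit of the 6 libraries alone (adjusted p = 0.0789 for per1b and 0.0701 for gadd45bb). The claudin gene cldnd was at 21.4, 26.04 and 22.1 CPM at shield and at 1.73, 7.61 and 2.72 CPM at 75%. It changed by -2.49, by -2.14 without 75% replicate A and by -3.38 without 75% replicate B. The autophagy gene map1lc3c changed by -2.46, the collagen gene col28a1a by -2.42, the vesicle trafficking gene vps16 by -2.44, the protein kinase C gene prkcba by -2.54 (-1.94 without shield replicate B), the centrosomal gene fopnl by -2.8 and znf1091 by -2.67. Means of cldnd and map1lc3c declined at every step from sphere, where they were 352 and 184 CPM.

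Ranked by CPM gained or lost in place of fold, other genes came first. nhsl1b, related to the Nance-Horan actin regulators, measured 225, 98.7 and 147 CPM at shield and 674, 683 and 685 CPM at 75%. Here the 75% libraries were nearly equal and the change of 2.12 (SE 0.42) was 2.12 without replicate A, but in the fit of the 21 uninjected libraries nhsl1b was not called (adjusted p = 0.0603). The cationic amino acid transporter slc7a3a rose from 401, 438 and 458 CPM to 1046, 818 and 889 CPM. The orphan nuclear receptor nr6a1a changed by 1.64, the Rac activator tiam1b by 1.69 (adjusted p = 0.0749 in the fit of the 21 uninjected libraries) and calpastatin (cast) by 1.1. Among falls, the RNA helicase ddx5 went from 3786, 4706 and 3622 CPM to 804, 1972 and 1799.5 CPM, a change of -1.4 (SE 0.27, adjusted p = 0.000197). Chromatin and cell division genes were also among them, with -1.02 for ctcf, the insulator protein, -1.44 for rcc1, the exchange factor of Ran, and -1.18 for ccna2 (cyclin A2). gpt2, an alanine aminotransferase, changed by -1.3, and gdpd5b by -1.48. ddx5, rcc1 and gdpd5b were not called in the fit of the 6 libraries alone (adjusted p = 0.0851, 0.143 and 0.158). In the fit of the 21 uninjected libraries gdpd5b was also just short of the call (adjusted p = 0.05001).

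Of 20 tested transcription factors of non-neural ectoderm 10 rose (50% of the list, beside 7.07% of all genes tested), with a median log2 fold change of 1.38 over the list. The median of all genes tested with more than 3 counts in at least 1 library was 0.01, and here and in the lists below a gene with no count at 1 of the stages enters at the bound of its fold. tp63, the master regulator of epidermis, rose from 22.8, 10.98 and 16.9 CPM to 333, 103 and 119 CPM, a change of 3.45 (SE 0.65, adjusted p = 0.000152), and 2.71 without 75% replicate A. gata3 went from 338, 285 and 375 CPM to 1421, 622 and 664 CPM, and in this gene the call depended on replicate A, with a change of 1.44 that was 0.95 without it (not called without 75% replicate A, adjusted p = 0.0778). The same held for tfap2a, a pioneer of surface ectoderm, at 777, 461 and 509 CPM and then 1975, 1156 and 1218 CPM (not called without 75% replicate A, adjusted p = 0.0828), and for klf2a (not called without 75% replicate A, adjusted p = 0.0905). dlx4b had no count at shield and 5.28, 1.66 and 2.88 CPM at 75%, which is at least 14.6-fold higher by its mean against the mean floor of 0.225 CPM per library. gata2a, with 1096, 693 and 823 CPM and then 2115, 1536 and 1595 CPM, foxi1, with 519.7, 404 and 459 CPM and then 1233, 802 and 791 CPM, and tfap2c all had higher CPM in every 75% library than in any shield library but were not called (adjusted p = 0.151, 0.201 and 0.186). The grainyhead gene grhl3 had a log2 fold change of -0.78 (adjusted p = 0.166). Without 75% replicate A, 6 of the 20 genes rose, while over all genes tested the calls went from 1349 higher to 486.

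Genes of surface layers were called in differing shares, beside 15.8% of all genes tested. Among 20 tested genes of the enveloping layer and periderm 1 was called (5%), icn, which stood at 5.51, 3.29 and 4.88 CPM and then 22.2, 12.2 and 12.5 CPM (not called without 75% replicate A or shield replicates A, B or C, adjusted p up to 0.215). The median log2 fold change of this list was 0.47, beside 0.01 for all genes tested. The keratin krt4 was abundant at both stages, at 5871, 5194 and 4642 CPM and then 9724, 5664 and 6012 CPM, with an adjusted p of 0.706. krt8 measured 5346, 4282 and 4816 CPM and 6155, 5326 and 5526 CPM (adjusted p = 0.83), and the plakin gene ppl 1653, 1273 and 1483 CPM and 1978, 1794 and 1859.5 CPM (adjusted p = 0.471). Larger rises were also not called. cyt1 went from 1024, 797 and 924 CPM to 1639, 1419 and 1555 CPM (adjusted p = 0.376). anxa1c went from 202, 170 and 178 CPM to 354, 366 and 342 CPM (adjusted p = 0.228). In the other direction, cldne, cldnf and evpla had log2 fold changes of -0.17, -0.16 and -0.06, not called either. The summed level of the list ran from 17234 to 21151 CPM at shield and from 22162 to 27717 CPM at 75%, so enveloping layer transcripts were present throughout. Of 18 tested genes of basal epidermis 3 rose (16.7%, beside 7.07% of all genes) and 1 fell (5.56%, beside 8.75%), and 1 was called without 75% replicate A or without shield replicate B and 2 without shield replicate A. hmcn1, a hemicentin of the basement membrane, rose by 3.74 from 1.22, 0.549 and 0.3004 CPM to 16.2, 5.503 and 6.43 CPM (3.08 without 75% replicate A, 4.44 without shield replicate A). lamb1a, a laminin chain, and pkp1b, a plakophilin, rose by 1.5 and 1.3, and cdh1 (E-cadherin) fell by 0.36, from 826, 798 and 725 CPM to 590.0, 607 and 639 CPM. Each of these 3 calls depended on single libraries (lamb1a was not called without 75% replicate A or shield replicates B or C, adjusted p up to 0.123, pkp1b was not called without 75% replicates A, B or C or shield replicates A or B, adjusted p up to 0.176, and cdh1 was not called without 75% replicates A or B or shield replicates A or B, adjusted p up to 0.15). Of 9 tested ionocyte genes foxi3a and jag2b were called, both higher (22.2%, beside 7.07%), and jag2b, a Notch ligand, stood at 1.22, 0.235 and 0.375 CPM and then 1.18, 2.303 and 4.04 CPM (not called without 75% replicate C or shield replicates B or C, adjusted p up to 0.0783).

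The neural plate border and neural crest list had 6 rises and 1 fall among 19 tested genes (31.6% and 5.26%, beside 7.07% and 8.75% of all genes tested), with a median of 0.79. Besides dlx3b, dlx4b, prdm1a, msx1a and tfap2a, which have been described, msx2b rose from 0.0716, 0 and 0 CPM to 19.8, 1.41 and 1.65 CPM (adjusted p = 0.000301, 0.0175 without 75% replicate A, and 0.0513 in the fit of the 6 libraries alone, where it was not called). snai2, a repressor of the snail family associated with migrating crest, fell from 171, 202 and 171 CPM to 21.6, 64.2 and 62.1 CPM, a change of -1.88 (adjusted p = 0.0047, not called without 75% replicate A, adjusted p = 0.0748). foxd3, a factor of definitive crest, was at 1.65, 1.65 and 4.66 CPM and then 0.0789, 3.14 and 0.989 CPM. Genes of this list that rose are those shared with the non-neural ectoderm list or with the BMP response, apart from msx1a.

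Of 22 tested neural genes 2 rose and 1 fell (9.09% and 4.55%, near the 7.07% and 8.75% of all genes tested), with 5 calls without 75% replicate B and 1 without shield replicate B. otx1, a homeobox gene of the forebrain, rose from 13.3, 6.51 and 12.2 CPM to 158, 33.5 and 47.5 CPM, a change of 2.89 (1.92 without 75% replicate A, and not called in the fit of the 6 libraries alone, adjusted p = 0.0883). six3b was at 0 in all shield libraries and at 0.315, 0.768 and 0.3297 CPM at 75%, at least 2.09-fold higher by its mean (not called without 75% replicate B or shield replicate B, adjusted p up to 0.0615). ncam1a, a neural cell adhesion molecule, changed by -1.37 (not called without 75% replicate A or shield replicates A or B, adjusted p up to 0.281). sox3, a pan-neural factor, was not called (adjusted p = 0.0528), with 879, 1076 and 1011 CPM at shield and 32.02, 591 and 475 CPM at 75%. Replicate A was far below B and C in this gene, and sox19a showed the same order with 429, 747 and 732 CPM at 75%. Among 14 proneural genes and Delta ligands the 2 rises (14.3%, beside 7.07%) were of ligands, dla from 16.9, 7.92 and 4.88 CPM to 79.02, 34.6 and 42.2 CPM and dld from 25.2, 13.2 and 23.1 CPM to 88.8, 85.7 and 76.3 CPM. The change of dld was 2.03 (SE 0.55, not called without shield replicate B, adjusted p = 0.0661). That of dla was 2.39, or 1.95 without 75% replicate A and 3.02 without shield replicate A (not called without 75% replicate A or shield replicates B or C, adjusted p up to 0.095). neurog1, a proneural factor, had 0.286, 0.706 and 0.901 CPM and then 0.631, 0.576 and 0.577 CPM, low at both stages.

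The Notch list, which shares dla, dld and jag2b with lists above, had 7 rises and no fall among 22 tested genes (31.8% higher, beside 7.07% of all genes tested, and none lower, beside 8.75%), with a median of 0.44, and 4 genes were called without 75% replicate A or C, 3 without shield replicate C and 2 without shield replicate B. notch2, a receptor, went from 12.2, 9.88 and 11.8 CPM to 47.2, 22.7 and 28.4 CPM, a change of 1.53 (SE 0.32, adjusted p = 0.000575) and of 1.18 without replicate A. her15.1, a hairy-related target of Notch, had 3 counts or fewer in each shield library and stood at 17.8, 3.07 and 4.53 CPM at 75% (adjusted p = 0.000194, 0.00391 without replicate A, and 0.0617 in the fit of the 21 uninjected libraries, where it was not called). The glycosyltransferase lfng and the ubiquitin ligase mib1 rose by 0.44 and 0.51, with calls that depended on single libraries (lfng was not called without 75% replicates A or C or shield replicates B or C, adjusted p up to 0.231, and mib1 was not called without 75% replicates A or C or shield replicates B or C, adjusted p up to 0.283).

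Ligands of BMP were expressed at both stages. bmp4 measured 142, 102 and 114 CPM at shield and 158, 177 and 171 CPM at 75%, and bmp7a 659, 443 and 516 CPM and 798, 709 and 653 CPM (adjusted p = 0.544 and 0.678). Of 16 tested ligands and antagonists 1 was called (6.25% higher, near the 7.07% of all genes tested), the protease gene bmp1a, which rose by 0.70 (not called without 75% replicate A or shield replicates B or C, adjusted p up to 0.234). Among 21 genes of the BMP response 3 rose (14.3%, beside 7.07%) and none fell, with a median of 0.83, and 1 rise was left without 75% replicate A. id3, an inhibitor of helix-loop-helix factors, went from 43.7, 28.4 and 32.3 CPM to 96.5, 55.2 and 53.8 CPM (adjusted p = 0.00512, not called without 75% replicate A or shield replicate B, adjusted p up to 0.152). bambib, a decoy receptor, had 0.644, 1.57 and 1.43 CPM at shield and 31.1, 3.52 and 3.87 CPM at 75%, where replicate A alone was far above shield, and its change of 3.4 was 1.61 without it (not called without 75% replicate A, adjusted p = 0.282). msx2b, described above, was the rise that was left. The inhibitory Smad gene smad6b, at 7.23, 4.55 and 4.36 CPM and then 41.95, 16.9 and 18.96 CPM, was not called (adjusted p = 0.0562).

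Among 19 tested Fgf genes 4 fell (21.1%, beside 8.75% of all genes tested) and 2 rose (10.5%, beside 7.07%), and 3 were called without shield replicate B. The median log2 fold change of the list was 0.20. Its summed level ran from 1820 to 2039 CPM at shield and from 2286 to 2711 CPM at 75%. The receptor gene fgfr1a went from 228, 254 and 218 CPM to 133, 145 and 128 CPM, a change of -0.79 (SE 0.16, adjusted p = 0.000205). It fell to the same extent in all 3 libraries, and the change was -0.78 without 75% replicate A. etv5b, an ETS factor induced by Fgf, fell by 1.08 from 342, 331 and 295 CPM to 110.2, 188 and 161 CPM. il17rd (sef), a feedback inhibitor, changed by -0.70 (not called without 75% replicates A or C or shield replicates B or C, adjusted p up to 0.166), and the ligand gene fgf17 had 0.286, 2.27 and 0.451 CPM and then 0, 0 and 0.3297 CPM (not called without 75% replicates A or B or shield replicate B, adjusted p up to 0.394). Of the rises, fgfr4 changed by 0.75 (not called without 75% replicates A or C or shield replicates A, B or C, adjusted p up to 0.218), while the decoy-like receptor gene fgfrl1b was at 0 at shield and at 1.42, 0.128 and 1.07 CPM at 75%. That is at least 3.88-fold higher by its mean, but 75% replicate B was under its 3-count limit of 0.192 CPM. The Wnt list had 2 rises and 1 fall among 21 (9.52% and 4.76%, near the shares over all genes), with 1 call without 75% replicate A or shield replicate B. nkd1, a feedback inhibitor of Wnt, rose by 1.96 from 7.09, 2.59 and 6.23 CPM to 18.8, 23.03 and 20.2 CPM (not called without shield replicate B, adjusted p = 0.0886). The receptor gene fzd8a rose by 0.76 and rspo3, a Wnt agonist, fell by 1.77. fzd8a was not called without 75% replicate A or shield replicates B or C, adjusted p up to 0.322, and rspo3 was not called without 75% replicate A, adjusted p = 0.0576.

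Among 23 tested Nodal targets and mesendoderm genes 2 rose and 2 fell, 8.7% in each direction, which is near the 7.07% and 8.75% of all genes tested, with 2 calls without shield replicate B or C. The Nodal ligand ndr2 stood at 0.501, 0.627 and 0.526 CPM at shield and 0.946, 1.02 and 0.0824 CPM at 75%, the Nodal antagonist lft1 at 0.0716, 0.392 and 0.451 CPM and 0.0789, 0 and 2.06 CPM, and the endoderm factor sox17 at 0 in 5 libraries and at 0.742 CPM in 75% replicate C. tbxta, the brachyury gene, had 9.02, 4 and 10.1 CPM and then 0.7097, 27.4 and 22.01 CPM, so that replicate A had almost none of it while B and C were above shield (adjusted p = 0.383). gata6, which acts in endoderm and heart precursors, rose from 5.08, 3.06 and 0.976 CPM to 93.8, 21.1 and 15.99 CPM, a change of 3.84 (2.6 without 75% replicate A, 4.43 without shield replicate A, and not called in the fit of the 6 libraries alone, adjusted p = 0.0982). fscn1a, an actin bundling gene, fell by 1.24 (SE 0.22, adjusted p = 4.52e-05). tdgf1, the Nodal co-receptor, fell by 0.84 (not called without 75% replicate A or shield replicates B or C, adjusted p up to 0.313), and sox32 was called from 0.0789, 1.28 and 0.577 CPM at 75% against 0 at shield (not called without 75% replicates A, B or C or shield replicates A, B or C, adjusted p up to 0.189). Of 19 genes of paraxial and ventrolateral mesoderm cdx1a alone was called (5.26% higher, beside 7.07%), at 0.788, 0 and 0.1502 CPM and then 2.52, 3.07 and 3.38 CPM (not called without shield replicates B or C, adjusted p up to 0.0811). tbx16, a T-box factor of paraxial mesoderm, was at 408, 653 and 560.0 CPM and then 50.5, 327 and 276 CPM (adjusted p = 0.141), again lowest in 75% replicate A. The summed level of the mesoderm list was 499 to 725 CPM at shield and 87.9 to 452 CPM at 75%. tbx16 made up most of this sum in each library, so the sum mainly follows that gene. The median log2 fold change of the list was 0.90. Without 75% replicate A it was 0.02, taken over all 19 tested genes and without bounds.

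Of 20 tested oocyte and maternal genes 10 fell (50%, beside 8.75% of all genes tested), 10 were not called and none rose, with a median log2 fold change of -1.17, and 5 fell without 75% replicate A and 6 were called without shield replicate B. gdf3, the maternal Nodal partner also known as vg1, went from 86.6, 90.6 and 97.8 CPM to 9.78, 34.8 and 26.8 CPM, a change of -1.94 (SE 0.35, adjusted p = 7.44e-05). cth1, a CCCH zinc finger gene, fell by 1.73, and org (oogenesis-related gene) changed by -1.31. The maternal cyclin ccna1 changed by -1.74, from 71.8, 131 and 107 CPM to 7.49, 44.2 and 40.97 CPM (adjusted p = 0.228 in the fit of the 6 libraries alone and 0.0643 in that of the 21), and the linker histone h1m by -1.71 (not called without 75% replicate A, adjusted p = 0.056). Of 12 germ plasm genes 5 fell (41.7%, beside 8.75%) and 7 were not called, with a median of -0.95, and 2 were called without 75% replicate A and 3 without 75% replicate B or shield replicate B or C. ddx4 (vasa), the RNA helicase of germ cells, stood at 136, 172 and 150.5 CPM and then 12.3, 63.9 and 56.7 CPM, a change of -1.78 (SE 0.31, adjusted p = 3.83e-05) and of -1.34 without replicate A, with an adjusted p of 0.179 in the fit of the 6 libraries alone, where it was not called. rgs14a fell by 2.71, and of the other falls piwil1 was not called without 75% replicate A, adjusted p = 0.114, piwil2 was not called without 75% replicates A or B or shield replicates B or C, adjusted p up to 0.143, and dazl was not called without 75% replicates A, B or C or shield replicates B or C, adjusted p up to 0.244. Of 22 early zygotic and pluripotency genes 2 fell, blf and mych (9.09%, near the 8.75% of all genes), and mych was not called without 75% replicate A or shield replicates B or C, adjusted p up to 0.323. pou5f3, a key activator of the zygotic genome, was at 3972, 4308 and 4295 CPM and then 1715, 3744 and 3413 CPM (adjusted p = 0.324), and nanog at 276, 361 and 402 CPM and 149, 258 and 226 CPM (adjusted p = 0.102).

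Of 42 tested cell cycle genes 8 fell (19%, beside 8.75% of all genes tested) and none rose (beside 7.07%), with a median of -0.27, and 5 fell without 75% replicate A. ccna2 was at 944, 1269 and 900.2 CPM and then 327, 554 and 492 CPM, with an adjusted p of 3.97e-08. cdt1, which licenses replication origins, fell by 0.96 (SE 0.15), from 625, 695 and 638 CPM to 275, 388 and 347 CPM. mcm4, a subunit of the replicative helicase, and rb1, the retinoblastoma gene, fell by 0.66 and 0.61, and both 75% ranges were narrow, at 297, 313 and 296 CPM and 235, 233 and 223 CPM. The mitotic cyclins ccnb1 and ccnb2 and the activator cdc20 fell by 0.51, 0.52 and 0.36. ccnb1 was not called without 75% replicate A, adjusted p = 0.16, ccnb2 was not called without 75% replicate A or shield replicate B, adjusted p up to 0.172, and cdc20 was not called without 75% replicate A or shield replicates B or C, adjusted p up to 0.294. The proliferation genes pcna and mki67 were not called, with 787, 1002 and 936 CPM and 1659, 1822 and 1806 CPM at 75% (adjusted p = 0.321 and 0.24).

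Junction and matrix genes moved in both directions. Of 25 tested claudin and tight junction genes 7 fell (28%, beside 8.75% of all genes tested) and 1 rose (4%, beside 7.07%), and 5 fell and 1 rose without 75% replicate A. Within the zonula occludens family the members went different ways. tjp1b rose from 36.4, 31.1 and 29.1 CPM to 122, 52.4 and 58.9 CPM, a change of 1.27 (SE 0.21, adjusted p = 1.72e-05), while tjp2b fell from 24.5, 34.5 and 27.6 CPM to 7.96, 13.7 and 14.8 CPM, a change of -1.25 (SE 0.19, adjusted p = 5.56e-06). tjp1a and tjp3 fell by 0.60 and 0.70, and occludin a (oclna) changed by -0.69. All 5 of these genes were called in the same direction under both scalings and without any one library. Of 39 cadherin, integrin and matrix genes 7 rose (17.9%, beside 7.07%) and 4 fell (10.3%, beside 8.75%), and 6 were called without 75% replicate A and 7 without shield replicate B. Fibronectin 1a (fn1a) went from 26.1, 25.02 and 20.4 CPM to 443, 106 and 108 CPM, a change of 3.2 (SE 0.45, adjusted p = 1.81e-06), or 2.17 without 75% replicate A, and was not called in the fit of the 6 libraries alone (adjusted p = 0.0695). hapln1b, a hyaluronan link protein, changed by 4.9 (3.3 without 75% replicate A, 5.93 without shield replicate A, adjusted p = 0.063 in the fit of the 6 libraries alone), whereas its paralog hapln1a changed by -2.12, from 1.86, 2.12 and 1.202 CPM to 0.394, 0.512 and 0.247 CPM (not called without 75% replicates A or C or shield replicate B, adjusted p up to 0.06). pcdh18a rose by 3.05 (3.73 without shield replicate A, and not called without shield replicate C, adjusted p = 0.0566). The laminin gene lama1 rose by 1.8, cdh6 by 3.11 (1.7 without 75% replicate A, 3.9 without shield replicate A) and the integrin gene itgav fell by 0.40. lama1 was not called without 75% replicate A or shield replicate B, adjusted p up to 0.0815, cdh6 was not called without 75% replicate A, adjusted p = 0.111, and itgav was not called without 75% replicate A or shield replicate C, adjusted p up to 0.0974.

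**Figure D4:**
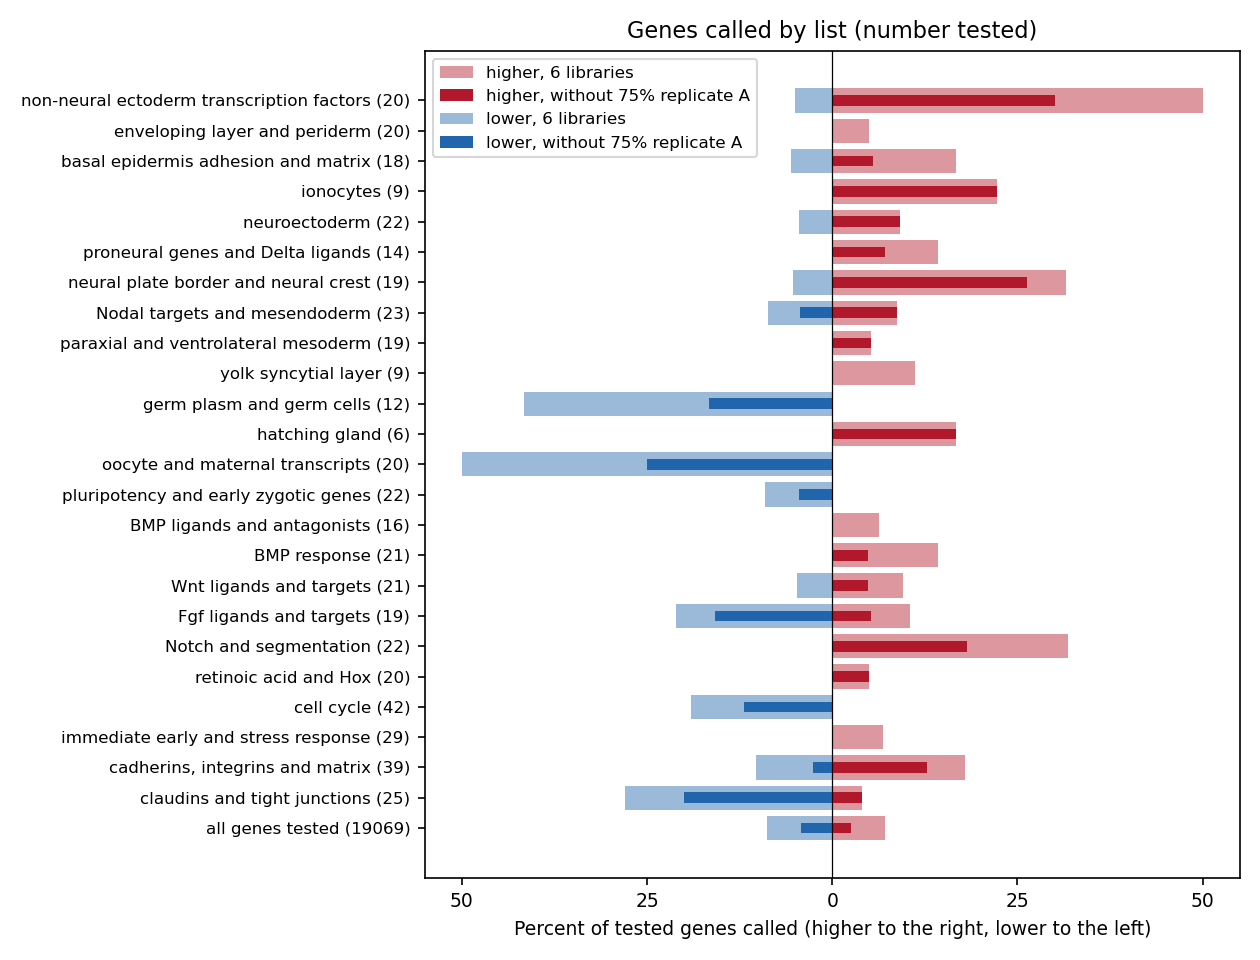
Share of tested genes called higher (right, red) and lower (left, blue) at 75% epiboly by gene list, with the number tested in brackets. Wide pale bars use all 6 libraries and narrow dark bars leave out 75% replicate A; the last line is all 19069 genes tested, at 7.07% higher and 8.75% lower.

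The same interval was set against the injected explants, which share no library with the uninjected ones. In ndr2 explants 4934 genes were called between shield and 75% epiboly (25.9%) and in CA-acvr1b* explants 4225 (22.2%). Of the 1349 uninjected rises 971 also rose with ndr2, which is 72.0% of the uninjected and 41.4% of the ndr2 rises, and 925 rose with CA-acvr1b*, or 68.6% and 44.3%. Of the 1669 falls 1383 were shared with ndr2 (82.9% and 53.4%) and 1319 with CA-acvr1b* (79.0% and 61.8%). Over all 19069 genes tested, 2343 rose and 2591 fell with ndr2, and 2089 rose and 2136 fell with CA-acvr1b*. A call in the opposite direction was found for 4 rises and 4 falls with ndr2 and for 2 rises and 3 falls with CA-acvr1b*. Of the 20 non-neural ectoderm factors 5 rose with ndr2 (beside 12.3% of all genes called higher there) and 6 with CA-acvr1b* (beside 11%). dlx3b changed by 5.68 (ndr2) and 4.37 (CA-acvr1b*) and prdm1a by 5.29 and 4.83, whereas gata3 changed by 0.23 in both (adjusted p = 0.65 and 0.675). klf2a changed by 0.61 and 0.57 (adjusted p = 0.355 and 0.413) and was called in neither. dlx4b rose by 2.27 and 2.35, just short of the call in both (adjusted p = 0.0783 and 0.0676). For gata3, klf2a and dlx4b the differences of change from the uninjected explants were not called. etv5b, fgfr1a, notch2, fscn1a and gata6 passed the call in uninjected explants and in neither injected set, and their differences of change were not called. gata6 changed by 1.55 with ndr2 and by -0.85 with CA-acvr1b* (adjusted p = 0.117 and 0.411). Its difference of change with CA-acvr1b* was just short of the call (adjusted p = 0.0548).

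The difference of the change itself was tested by an interaction contrast. It was called for 15 genes with ndr2 (0.0787% of genes tested) and for 6 with CA-acvr1b* (0.0315%), and 1332 and 1088 genes had an unadjusted p under 0.05. Both contrasts use the same uninjected libraries. her3 (ENSDARG00000076857), a hairy-related repressor of the neural plate, was at 2.36, 2.67 and 3.08 CPM in uninjected shield explants and at 0.710, 1.28 and 0.824 CPM at 75%. With ndr2 it went from 6.32, 1.16 and 3.35 CPM to 37.6, 24.3 and 59.1 CPM and with CA-acvr1b* from 2.85, 7.26 and 9.16 CPM to 53.2, 73.0 and 72.2 CPM, so the change exceeded the uninjected one by 4.98 (SE 0.90, adjusted p = 0.00694) and 4.85 (SE 0.90, adjusted p = 0.0157). The first call was lost without ndr2 75% replicate C, and the second without uninjected 75% replicate A or C, uninjected shield replicate C or CA-acvr1b* shield replicate A. gli1 (ENSDARG00000101244), a transcriptional effector and target of Hedgehog signalling, went from 7.95, 8.39 and 7.36 CPM to 1.58, 5.57 and 2.8 CPM in uninjected explants and rose from 11.04, 11.3 and 18.8 CPM to 67.1, 52.9 and 75.1 CPM with ndr2. With CA-acvr1b* it rose from 17.4, 13.4 and 20.6 CPM to 102, 110.0 and 116 CPM, and the differences of 3.47 and 3.9 (both SE 0.60, adjusted p = 0.00572 and 0.00103) were called whichever library was left out. foxb1a, a forkhead gene of the neural tube, did not pass the call in uninjected explants (3.8, 5.8 and 7.58 CPM, then 1.66, 6.46 and 4.95) and rose with ndr2 from 10.4, 17.3 and 19.4 CPM to between 110.0 and 152 CPM, a difference of 3.5 (SE 0.60, adjusted p = 0.00572) that was not called in the fit of only the libraries compared.

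csad (ENSDARG00000026348), a taurine biosynthesis enzyme, went the opposite way. It rose in uninjected explants from 22.0, 14.7 and 16.1 CPM to 31.1, 29.9 and 31.5 CPM, and fell with ndr2 from 12.4, 16.8 and 19.8 CPM to 8.79, 9.83 and 10.15 CPM. The difference was -1.57 (SE 0.29, adjusted p = 0.00694), called whichever library was left out, and for CA-acvr1b* it was -1.39 (SE 0.29, adjusted p = 0.0486), lost without any one of 10 libraries. ets1, an ETS factor, rose in uninjected explants from 3.22, 3.69 and 4.58 CPM to 23.6, 8.32 and 7.83 CPM and had 3.55, 4.35 and 2.66 CPM at 75% with ndr2. Its difference of -2.69 (SE 0.51, adjusted p = 0.00858) was not called without uninjected 75% replicate A or ndr2 75% replicate C. zeb1a, a zinc finger repressor linked to loss of epithelial character, fell in uninjected explants from 121, 139 and 129 CPM to 46.1, 88.2 and 71.5 CPM, whereas with ndr2 it went from 183, 220.0 and 216 CPM to 300.0, 264 and 315 CPM. The difference was 1.43 (SE 0.27, adjusted p = 0.00867), lost without ndr2 75% replicate C or ndr2 shield replicate A.

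**Figure D5:**
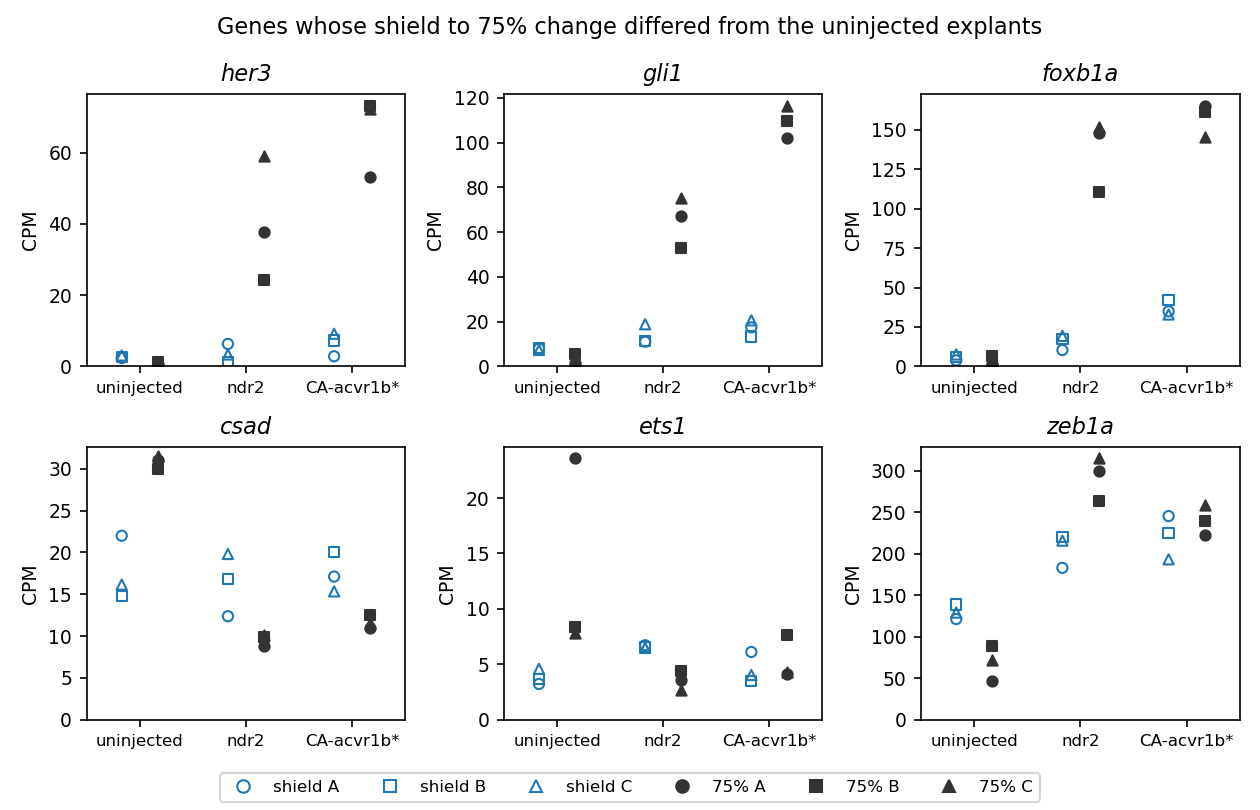
CPM of 6 genes whose change from shield (open blue) to 75% epiboly (filled black) differed between uninjected explants and at least 1 injected set, by library and condition. Filled markers of her3, gli1 and foxb1a lie above the open ones in both injected sets, csad and ets1 are higher at 75% in uninjected explants, and zeb1a is lower there.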

How the data were processed

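RNA-seq of polyadenylated RNA was measured in 63 libraries, 3 for each of 3 conditions at 7 stages, and libraries were grouped by the condition and stage in the labels. The deposited values are read counts per gene for 32057 genes. Per the submitters' processing notes, reads were trimmed with Trim Galore, mapped with STAR to danRer11 (GRCz11) and counted with featureCounts, with versions, annotation release, strand and the treatment of shared reads not given in the sources used here, so near-identical paralogs and overlapping genes are uncertain.

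Counts were analysed in R 4.3.3 with edgeR 4.0.16, limma 3.58.1 and version 1.17.8 of data.table. filterByExpr (minimum count 10, minimum total 15) kept 19069 genes with 99.969% of the counts, and TMM factors of the 6 libraries lay between 0.865 and 0.936. The robust quasi-likelihood F-test was fitted to all 63 libraries with a mean per group (42 residual degrees of freedom, common biological coefficient of variation 0.309, prior count 0.125). Benjamini-Hochberg adjustment ran over all genes tested. CPM are scaled by TMM factors, SE is the log2 fold change divided by the root of F, and a floor is 3 counts. No molecular identifiers mark the reads, so these are not independent molecules.

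Named genes were called with the same sign with and without 75% replicate A, had non-overlapping stages, averaged at least 10 CPM in 1 of the stages and a protein-coding biotype with a proper symbol. The rule took the 12 largest folds and 6 largest CPM differences per direction, and up to 2 called members per list and direction. Other list members, and genes called in the differences between conditions, are named where a count of their list or contrast is described. No gene met a stricter rule for genes switched on or off. The 25 gene lists were written from general knowledge, some share genes, and members and lists were chosen with earlier results of these data known. Alternatives were DESeq2 1.42.0, its size factors, no low-count filter, fewer libraries in the fit, a replicate block and leaving out each library. Some items are not reported here. The procedure was tested on simulated data.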

Additional observations from a re-analysis of the deposited data

Results flagged for a closer look

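The differences below were marked because the change from shield to 75% epiboly differed between an injected condition and the uninjected explants in edgeR's interaction test (adjusted p under 0.05). Values are log2 differences of change, and both contrasts share the 6 uninjected libraries. With ndr2 the change was above the uninjected one by 4.98 in her3, 3.5 in foxb1a, 3.47 in gli1, 2.7 in slc35f3a, 2.33 in wasf3b, 2.09 in stim2a, 1.74 in dact2, 1.44 in il17rd and 1.43 in zeb1a. It was below by the negative differences -2.69 in ets1, -2.55 in pla2r1, -2.08 in pawr, -1.57 in csad, -1.34 in ipo4 and -1.26 in metrnla. With CA-acvr1b* the difference was 4.85 in her3, 3.9 in gli1, 2.06 in chpfa, -1.39 in csad, -1.5 in ctbp2a and -2.11 in clint1b.

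Among these 21 results 4 were called whichever single library was left out, namely gli1 in both contrasts and csad and foxb1a with ndr2. slc35f3a, a solute carrier gene, was at 12.7, 12 and 9.61 CPM in uninjected shield explants and at 7.41, 18.8 and 16.4 CPM at 75%, and reached 38.9, 29.8 and 35.3 CPM at 75% with ndr2. dact2, a modulator of Wnt and Nodal signalling, reached 139, 123 and 128 CPM at 75% with ndr2 against 17.5, 14.6 and 11.95 CPM in uninjected explants. ipo4, an importin gene, fell in uninjected explants from 52.3, 63.5 and 70.6 CPM to 26.7, 36.4 and 41.0 CPM, and with ndr2 it fell further, from 80.2, 121 and 98.6 CPM to 20.02, 23.2 and 23.2 CPM. clint1b fell in all 3 conditions, to 2.05, 4.86 and 3.87 CPM in uninjected explants and to 1.74, 1.4 and 1.2 CPM with CA-acvr1b*. ctbp2a, a corepressor gene, rose in uninjected explants mainly in replicate A (110.25, 48.1 and 57.5 CPM at 75%). Its difference was not called without uninjected 75% replicate A, uninjected shield replicate B or C, CA-acvr1b* shield replicate A or any one CA-acvr1b* 75% library, nor in the fit of only the libraries compared.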

How the results depend on the processing

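Calls between shield and 75% epiboly numbered 3018. In the fit of the 21 uninjected libraries alone they numbered 1493, with 656 higher, 837 lower and 994 past a 2-fold change. Leaving out each library in turn gave 1289 to 3084 calls, 486 to 1409 higher, 803 to 1675 lower and 735 to 1851 past 2-fold, lowest without 75% replicate A. Without shield replicate B the counts were 1754, 689, 1065 and 1036. The DESeq2 test gave 3688 calls, DESeq2 size factors 3083, no filter 2586 and a fit of the 6 libraries 2327. Differences of change with ndr2 (15) numbered 92 with DESeq2, 54 in the fit of only the libraries compared, 25 with the replicate block and 3 to 23 without single libraries. With CA-acvr1b* (6) they numbered 28, 18, 7 and 1 to 10. The cause of these shifts was not tested, and some of the fits held fewer libraries. Same-letter libraries of the stages deviated together weakly (r = 0.144, 0.034 and 0.030 for A, B and C), and libraries of different letters had r between -0.0995 and 0.0616. These values do not decide whether letters mark pairs. The labels do not tie the letters to a clutch or a day, so letters were not taken as pairs in the main fit. The replicate block gave 3395 calls. Of 52 genes named by the rule 50 kept their call without any one library (dld and nkd1 lost it without shield replicate B). The rule had already required the call without 75% replicate A, so this count is partly set by the selection. The 93 called list members as a set were not filtered in this way, and 41 of them kept their call. These counts are therefore not comparable. Of 139 single-gene results 56 lost their call in the fit of only the libraries compared, and no sign changed. Depth limits genes near the floor of 0.192 to 0.247 CPM.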

Other observations

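A few called genes belong to lists not described above. sesn2 (sestrin 2, an amino acid and stress sensor) rose in all 3 libraries alike, from 28.4, 23.7 and 21.1 CPM at shield to 66.8, 71.8 and 74.3 CPM at 75% epiboly, or by 1.54 on the log2 scale (SE 0.28, adjusted p = 8.6e-05 in edgeR's test). rarga, a retinoic acid receptor gene, rose from 16.5, 11.1 and 14.4 CPM to 122, 37.0 and 37.4 CPM, by 2.22 with 75% replicate A and by 1.41 without it (adjusted p = 0.072 in the fit of the 6 libraries alone, where it was not called). This gene was the only call among 20 tested retinoic acid and Hox genes (5% higher, near the 7.07% of all genes tested). xbp1, a factor of secretory cells and the hatching gland, rose by 0.81 (adjusted p = 0.000585, and 0.0721 in the fit of the 6 libraries alone). The other 5 tested hatching gland genes were not called, so 16.7% of that list rose, beside 7.07% of all genes tested. Of 9 yolk syncytial layer genes apoc1, an apolipoprotein gene, was called (11.1% higher, beside 7.07% of all genes tested), from 395, 284 and 308 CPM to 964, 816 and 882 CPM. Its call was lost without 75% replicate A (adjusted p = 0.122), without 75% replicate C and without each shield library.

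Heat shock genes that were highest in shield replicate A are given here after their values were seen. hsp70.3, which encodes a chaperone, was at 145 CPM in shield replicate A and at 2.82 and 7.81 CPM in B and C, and hsp90aa1.2 at 299, 6.12 and 28.9 CPM. At 75% epiboly hsp70.3 was at 9.31, 3.14 and 6.18 CPM. Neither gene was called (adjusted p = 0.145 and 0.356). The summed level of the immediate early and stress list was 3394, 2804 and 3164 CPM in shield replicates A, B and C. Of its 29 tested genes 2 rose, ier2a and socs3b (6.9%, beside 7.07% of all genes tested), with no call in this list without 75% replicate A or without shield replicate B or C.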
